A study of Rattus norvegicus with 47 samples.

Results

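Potassium channel subunit genes were taken as every gene whose rat symbol starts with Kcn, of those reported here, and whose mean reached at least 1 CPM (counts scaled to a common library total) in striatum or cerebellum. The rule took 75 of 88 such symbols, out of 15319 genes counted. Of the 75 members, 63 reached 1 CPM in both regions, 12 in striatum only and 0 in cerebellum only. Just inside the level stood Kcne4 at 1.11, Kcnrg at 1.29 and Kcns3 at 1.38 CPM in the region of higher mean. Just outside it stood Kcnh5 at 0.966 and Kcnq1 at 0.923 CPM.

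Potassium channels let potassium leave the neuron and so set its resting potential, shape and end the action potential, and limit how fast it fires. Most are tetramers or dimers of pore-forming alpha subunits, so the subunits a cell expresses together decide which channels it can build, and auxiliary subunits tune their gating and transport. Striatal projection neurons are known for a very negative resting potential held by inward rectifiers and for slowly inactivating and A-type currents, whereas cerebellar Purkinje cells and interneurons fire at high rates with Kv3 channels, and cerebellar granule cells carry large leak currents through K2P channels.

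The rats were male and female Sprague-Dawley animals that breathed PCB52 (a tetrachlorinated biphenyl found in air) or were sham-exposed, through a nose-only system for 4 h a day over 28 days, and were assigned to exposure at 39 days of age (males) or 42 days (females). RNA came from tissue punches, so each library mixes all cell types of the punch. Striatum gave 6 libraries of PCB52 males, 6 of PCB52 females, 4 of sham males and 6 of sham females, and cerebellum gave 5, 6, 5 and 6 in the same order. The question was which transcripts PCB52 inhalation changes in the brain.

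Total counts were 5684508 to 8914523 in striatal libraries and 6524400 to 15865054 in cerebellar libraries. The labelled regions matched their defining markers: Drd1, a dopamine receptor of striatal projection neurons, was at 202 to 463 CPM in striatum and 0.413 to 9.7 CPM in cerebellum, and Gabra6, a receptor subunit of cerebellar granule cells, was at 0 to 67.9 CPM in striatum and 861 to 1198 CPM in cerebellum. In 5 libraries a marker list of another tissue stood more than 2 log2 units above the regional median. These were striatum PCB52 females 14 (cortical neuron) and 20 (choroid plexus), striatum PCB52 male 19 (cortical neuron), striatum sham female 12 (olfactory bulb) and cerebellum sham male 1 (choroid plexus). The lists screened were choroid plexus and cortical neuron in both regions, thalamic and olfactory bulb neuron in striatum, and striatal projection neuron in cerebellum. No cerebellar list was screened in striatum. Fits without libraries of another tissue therefore kept striatum PCB52 female 22, which held the 67.9 CPM of Gabra6. They also kept striatum PCB52 female 24, which no list flagged. That library held the most Slc17a7, a glutamate transporter of cortical and granule neurons, of any striatal library, at 371 CPM. It also held the least Drd1 of them, at 202 CPM. Another 5 sham libraries held transcripts of both sexes: cerebellum sham females 8 and 10, cerebellum sham males 9 and 11, and striatum sham male 3. In bulk tissue, fewer cells of a type and less RNA per cell cannot be told apart.

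Striatum and cerebellum differed in most potassium channel subunits. The Kv3 genes Kcnc1, Kcnc2 and Kcnc4 were lower in striatum, and the strong inward rectifier gene Kcnj2, the Kv1 gene Kcna4, the silent subunit gene Kcng1, Kcnip2, Kcnq5 and Kcnk2 were higher there. In edgeR's quasi-likelihood test of striatum against cerebellum, 69 of 75 members passed an adjusted p of 0.05 (92%), where 80.9% of the 12446 genes tested did. Of the members, 38 were higher in striatum, where 38.5% of all genes were, and 31 were lower, where 42.4% of all genes were. The 12 members found at 1 CPM in striatum only, Kcnj4 and Kcna5 among them, had to differ by that rule and were all higher. Of the 63 found in both regions, 26 were higher, 31 lower and 6 did not pass.

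With at least a 2-fold change as well, 48 members passed (64%), where 28% of all genes did: 29 were higher in striatum (18.5% of all genes) and 19 lower (9.53% of all genes). Of the 63 members present in both regions, 17 were at least 2-fold higher and 19 at least 2-fold lower in striatum. In 34 of the 75 members (27 of these 63) the striatal and cerebellar libraries did not overlap in CPM, where 21.2% of all genes did not overlap. The median log2 fold change was -0.23 over these 63 members and -0.04 over all genes tested. Fitted within each of the 4 sex by treatment groups, 60 of the 69 called members were tested in all 4 and had the same direction in each. Kcna1, Kcne2 and Kcnn2 had the other direction in 1 group each. Kcne4, Kcng3, Kcnk16, Kcnn4, Kcns1 and Kcnt2 were too low to be tested in every group, and the same count was not made over all genes.

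**Figure D1:**
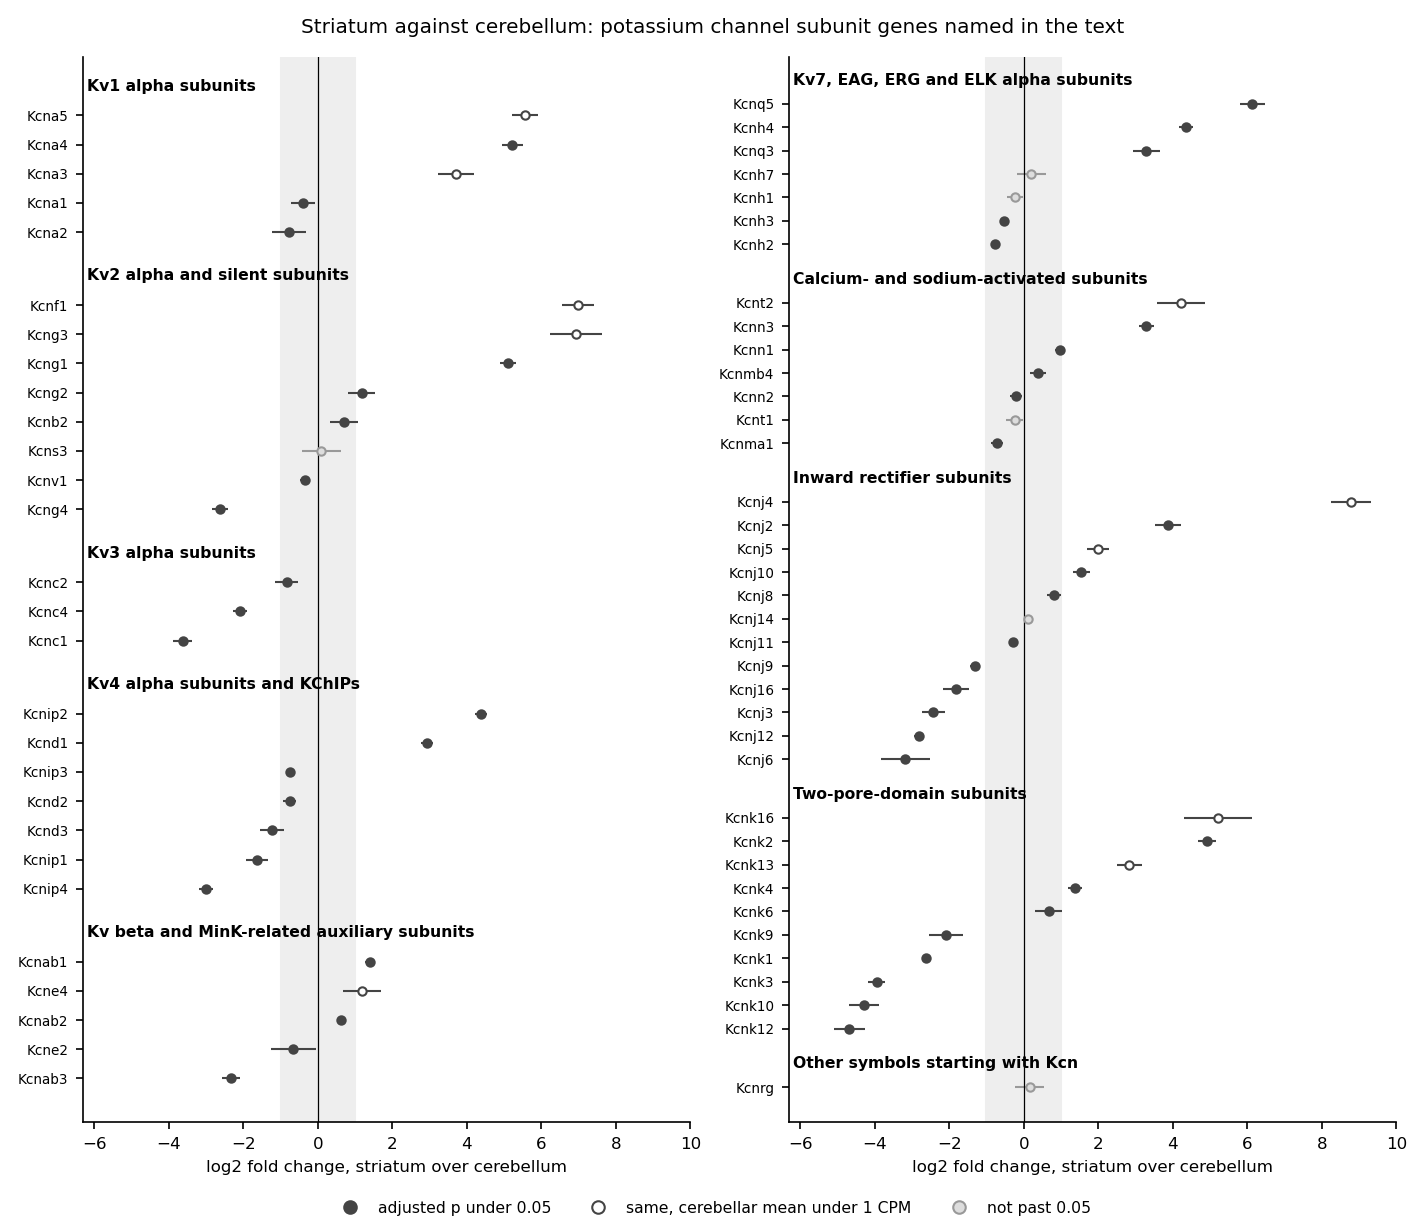
Log2 fold change of striatum over cerebellum for the members named in the text, by role family, with bars for 95% intervals and a shaded band for less than a 2-fold change. Kcnj4 at 8.78 and Kcnk12 at -4.69 lie at the ends, Kcnc1, Kcnc2 and Kcnc4 lie below 0, and open circles mark members whose cerebellar mean was under 1 CPM.

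Promoter sequences of RefSeq (build GRCr8, 250 bases before to 50 after the annotated start) were found for 48 of the 75 members. The 4 shown are the 2 members with an entry that had the largest fold change in each direction, so that a reader can see the start regions of the genes that differed most: Kcnj4 (chr7:112954498-112954797, minus strand), Kcnf1 (chr6:45693657-45693956, minus strand), Kcnc1 (chr1:106038997-106039296, plus strand) and Kcnj6 (chr11:47778299-47778598, minus strand). Letters are lower case and 5′ to 3′ on the gene's strand, and capitals mark the GC box GGGCGG on either strand, of which Kcnc1 has 3, Kcnj6 has 1 and Kcnj4 and Kcnf1 have 0.
Kcnj4: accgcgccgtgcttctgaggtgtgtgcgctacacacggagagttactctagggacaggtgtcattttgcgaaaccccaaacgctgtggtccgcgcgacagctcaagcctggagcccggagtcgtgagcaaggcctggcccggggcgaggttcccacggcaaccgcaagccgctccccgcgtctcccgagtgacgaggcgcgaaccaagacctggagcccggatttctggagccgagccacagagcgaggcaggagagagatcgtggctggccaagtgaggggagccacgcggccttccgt
Kcnf1: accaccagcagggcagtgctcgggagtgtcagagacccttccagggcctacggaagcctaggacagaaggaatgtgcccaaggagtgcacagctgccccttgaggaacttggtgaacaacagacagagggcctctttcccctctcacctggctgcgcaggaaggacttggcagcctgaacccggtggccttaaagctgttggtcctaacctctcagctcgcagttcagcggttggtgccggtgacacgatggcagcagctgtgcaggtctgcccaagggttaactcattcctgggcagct
Kcnc1: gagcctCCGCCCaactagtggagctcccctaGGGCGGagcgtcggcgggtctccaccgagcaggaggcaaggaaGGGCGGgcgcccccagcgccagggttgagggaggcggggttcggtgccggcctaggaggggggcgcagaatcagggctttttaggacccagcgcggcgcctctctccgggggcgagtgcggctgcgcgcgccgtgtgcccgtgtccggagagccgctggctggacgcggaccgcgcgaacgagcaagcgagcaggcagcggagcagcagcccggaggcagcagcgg
Kcnj6: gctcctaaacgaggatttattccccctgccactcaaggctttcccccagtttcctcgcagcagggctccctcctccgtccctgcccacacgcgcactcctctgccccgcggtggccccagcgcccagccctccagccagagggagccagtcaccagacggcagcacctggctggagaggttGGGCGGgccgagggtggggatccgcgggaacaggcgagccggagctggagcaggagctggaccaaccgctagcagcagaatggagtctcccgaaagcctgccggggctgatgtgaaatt

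The members' start regions were rich in G and C. Their median GC content was 65.8%, against 52.3% over all 27457 promoters of the table. The GC box GGGCGG, on either strand, was in 26 of the 48 (54.2%), where 34.9% of all promoters held it. The letters TATAAA, on either strand, were in 0 of the 48, where 14.3% of all promoters held them. CAGATG, the E-box of NeuroD-type factors, was in 2 of the 48 (4.17%), where 16.3% of all promoters held it, and the cyclic AMP response element TGACGTCA was in 0, where 1.91% of all promoters held it. The GC box was in 12 of the 22 members at least 2-fold higher in striatum with an entry and in 4 of the 9 at least 2-fold lower. None of these motifs contains another, and a match describes the letters only.

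Kv1 alpha subunits, which form low-threshold and A-type channels of axons and terminals, were split. Of 6 members, 4 were higher and 2 lower in striatum; Kcna3 and Kcna5, under 1 CPM in cerebellum, had to be higher. Kcna4, the A-type subunit of this family, was at 30.1 to 58.3 CPM (median 41.7) across striatal libraries, against 0.413 to 2.88 CPM (median 1.08) across cerebellar libraries, and did not overlap. Its log2 fold change was 5.22 ± 0.15 (adjusted p 8.9e-30; ± is the SE of the fitted log2 fold change throughout, with n = 22 libraries in each region). Kcna5 was at 8.99 to 31.98 CPM (median 23.4) across striatal libraries, against 0.127 to 1.39 CPM (median 0.412) across cerebellar libraries. Its mean was 48.3 times the cerebellar mean, which rests on 89 counts over all cerebellar libraries. Kcna2, an axonal subunit of low-threshold channels, was at 5.68 to 30.4 CPM (median 18.98) across striatal libraries, against 6.798 to 85.4 CPM (median 27.8) across cerebellar libraries, and the regions overlapped across most of the striatal range. Its log2 fold change was -0.76 ± 0.23 (adjusted p 0.00310), and the call was lost without the libraries of another tissue and of both sexes together (-0.59 ± 0.28, adjusted p 0.0563). Kcna1, its usual partner in axons, was at 10.1 to 45.7 CPM in striatum (median 36.5) and 15.3 to 80.3 CPM in cerebellum (median 48.2), with a log2 fold change of -0.39 ± 0.16 (adjusted p 0.0273). With the animal as a block it was -0.30 ± 0.17 (adjusted p 0.104).

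The Kv beta and MinK-related subunits modify alpha subunits from the cytoplasm (Kcnab) or the membrane (Kcne). Of 6 members, 4 were higher and 2 lower; Kcne4, under 1 CPM in cerebellum, had to be higher. Kcnab1, the beta subunit that speeds inactivation of Kv1 channels, was at 271 to 574 CPM (median 442) across striatal libraries, against 119.5 to 194 CPM (median 172) across cerebellar libraries, and Kcnab3 was at 8.84 to 41.05 CPM (median 12.5) across striatal libraries, against 60.4 to 82.6 CPM (median 71.2) across cerebellar libraries. Neither gene overlapped between regions, and they moved in opposite directions, at 1.41 ± 0.07 and -2.33 ± 0.13 on the log2 scale. Kcnab2 was at 136 to 198 CPM in striatum (median 171) and 72.1 to 140.1 CPM in cerebellum (median 112) (log2 fold change 0.63 ± 0.05). Kcne4 was at 0 to 2.99 CPM in striatum (median 1.08) and 0.132 to 0.992 CPM in cerebellum (median 0.348), and its mean in striatum was 2.44 times that in cerebellum.

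Kcne2, a MinK-related subunit abundant in choroid plexus epithelium, was at 1.79 to 76.6 CPM (median 2.94) across striatal libraries, against 4.25 to 27.2 CPM (median 5.92) across cerebellar libraries. Its log2 fold change of -0.66 ± 0.31 only just passed (adjusted p 0.0487). Without striatum PCB52 female 20, its highest striatal library, it was -1.26 ± 0.15, and without cerebellum sham male 1, its highest cerebellar library, it was -0.48 ± 0.30 and did not pass (adjusted p 0.135). These are the 2 libraries in which the choroid plexus marker Ttr was highest, at 10643 CPM in the striatal and 2193 CPM in the cerebellar one, against at most 82.0 and 25.1 CPM in the other libraries of those regions. The call was lost in 40 of 53 alternatives that kept all groups. With the animal as a block the log2 fold change was -1.05 ± 0.26 (adjusted p 0.0010).

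Kv2 alpha subunits (Kcnb) carry the somatic delayed rectifier, and the silent subunits (Kcnf, Kcng, Kcns, Kcnv) make channels only together with them. Of 11 members, 8 were higher in striatum, 2 lower and 1 did not pass; Kcnf1, Kcng3 and Kcns1, under 1 CPM in cerebellum, had to be higher. Kcng1 was at 37.4 to 83.1 CPM (median 62.7) across striatal libraries, against 0.825 to 3.01 CPM (median 1.81) across cerebellar libraries (log2 fold change 5.10 ± 0.11). Kcnf1 was at 44.7 to 91.5 CPM (median 70.6) across striatal libraries, against 0 to 6.74 CPM (median 0.421) across cerebellar libraries, a ratio of means of 85.9. Kcng3 was at 1.11 to 4.98 CPM (median 3.14) across striatal libraries, against 0 to 0.460 CPM (median 0) across cerebellar libraries. Of the cerebellar libraries, 20 of 22 held 0 counts of it, and all 4 counts came from PCB52 females. Its log2 fold change of 6.93 ± 0.36 rests on almost no cerebellar reads, and was 7.26 ± 0.31 without cerebellum PCB52 female 24. The pore-forming gene Kcnb2 was higher as well, at 1.46 to 5.07 CPM in striatum (median 2.39) and 0.254 to 4.61 CPM in cerebellum (median 1.55) (0.71 ± 0.19).

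The exceptions among the silent subunits were Kcng4 and Kcnv1. Kcng4 was at 16.4 to 50.2 CPM (median 31.3) across striatal libraries, against 130.0 to 268 CPM (median 194) across cerebellar libraries, with no overlap and a log2 fold change of -2.63 ± 0.11 (adjusted p 1.3e-23). Kcnv1 was lower by a small amount, at 24.4 to 63.1 CPM in striatum (median 42.9) and 44.4 to 65.02 CPM in cerebellum (median 53.3) (log2 fold change -0.34 ± 0.07). Kcns3 did not pass, at 0.586 to 3.78 CPM in striatum (median 1.21) and 0.144 to 3.83 CPM in cerebellum (median 1.02).

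Kv3 alpha subunits open only at strong depolarisation and close quickly, which lets fast-spiking neurons repolarise between closely spaced spikes. Kcnc1, Kcnc2 and Kcnc4 were lower in striatum. Kcnc1 was at 33.6 to 95.2 CPM (median 53.2) across striatal libraries, against 275 to 1081 CPM (median 726) across cerebellar libraries. The lowest cerebellar library exceeded the highest striatal one, and the log2 fold change was -3.63 ± 0.14. Kcnc4 was at 11.5 to 37.7 CPM in striatum (median 16.7) and 56.9 to 99.2 CPM in cerebellum (median 77.9) (-2.08 ± 0.09), again with no overlap. Kcnc2 overlapped, at 7.89 to 40.4 CPM in striatum (median 15.03) and 12.2 to 42.8 CPM in cerebellum (median 31.8) (-0.84 ± 0.15).

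Kv4 alpha subunits carry the somatodendritic A-type current, and the calcium-binding KChIP proteins (Kcnip) are their cytoplasmic partners. Of 7 members, 2 were higher in striatum and 5 lower. Kcnip2 was at 692 to 1067 CPM (median 897) across striatal libraries, against 26.7 to 64.01 CPM (median 40.9) across cerebellar libraries (log2 fold change 4.39 ± 0.09, adjusted p 5.5e-35). Kcnip4 went the other way, at 8.67 to 23.8 CPM (median 13.8) across striatal libraries, against 92.01 to 122 CPM (median 108) across cerebellar libraries (-2.999 ± 0.09). Kcnip1 was at 8.64 to 50.04 CPM in striatum (median 23.5) and 32.2 to 128 CPM in cerebellum (median 77.8) (-1.63 ± 0.15), and Kcnip3 was at 27.4 to 41.2 CPM in striatum (median 31.3) and 41.7 to 71.8 CPM in cerebellum (median 53.8) (-0.74 ± 0.06). Of the 4 KChIP genes, then, Kcnip2 alone was higher in striatum. Among the pore-forming genes, Kcnd1 was higher at 24.4 to 41.05 CPM in striatum (median 35.2) and 2.81 to 6.92 CPM in cerebellum (median 4.55) (2.93 ± 0.08). Kcnd3 was lower at 15.7 to 66.8 CPM in striatum (median 27.3) and 27.8 to 161 CPM in cerebellum (median 69.4) (-1.22 ± 0.17). Kcnd2 was also lower (-0.76 ± 0.09), but the reference table lists a near-identical copy of it, so its counts are uncertain.

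**Figure D2:**
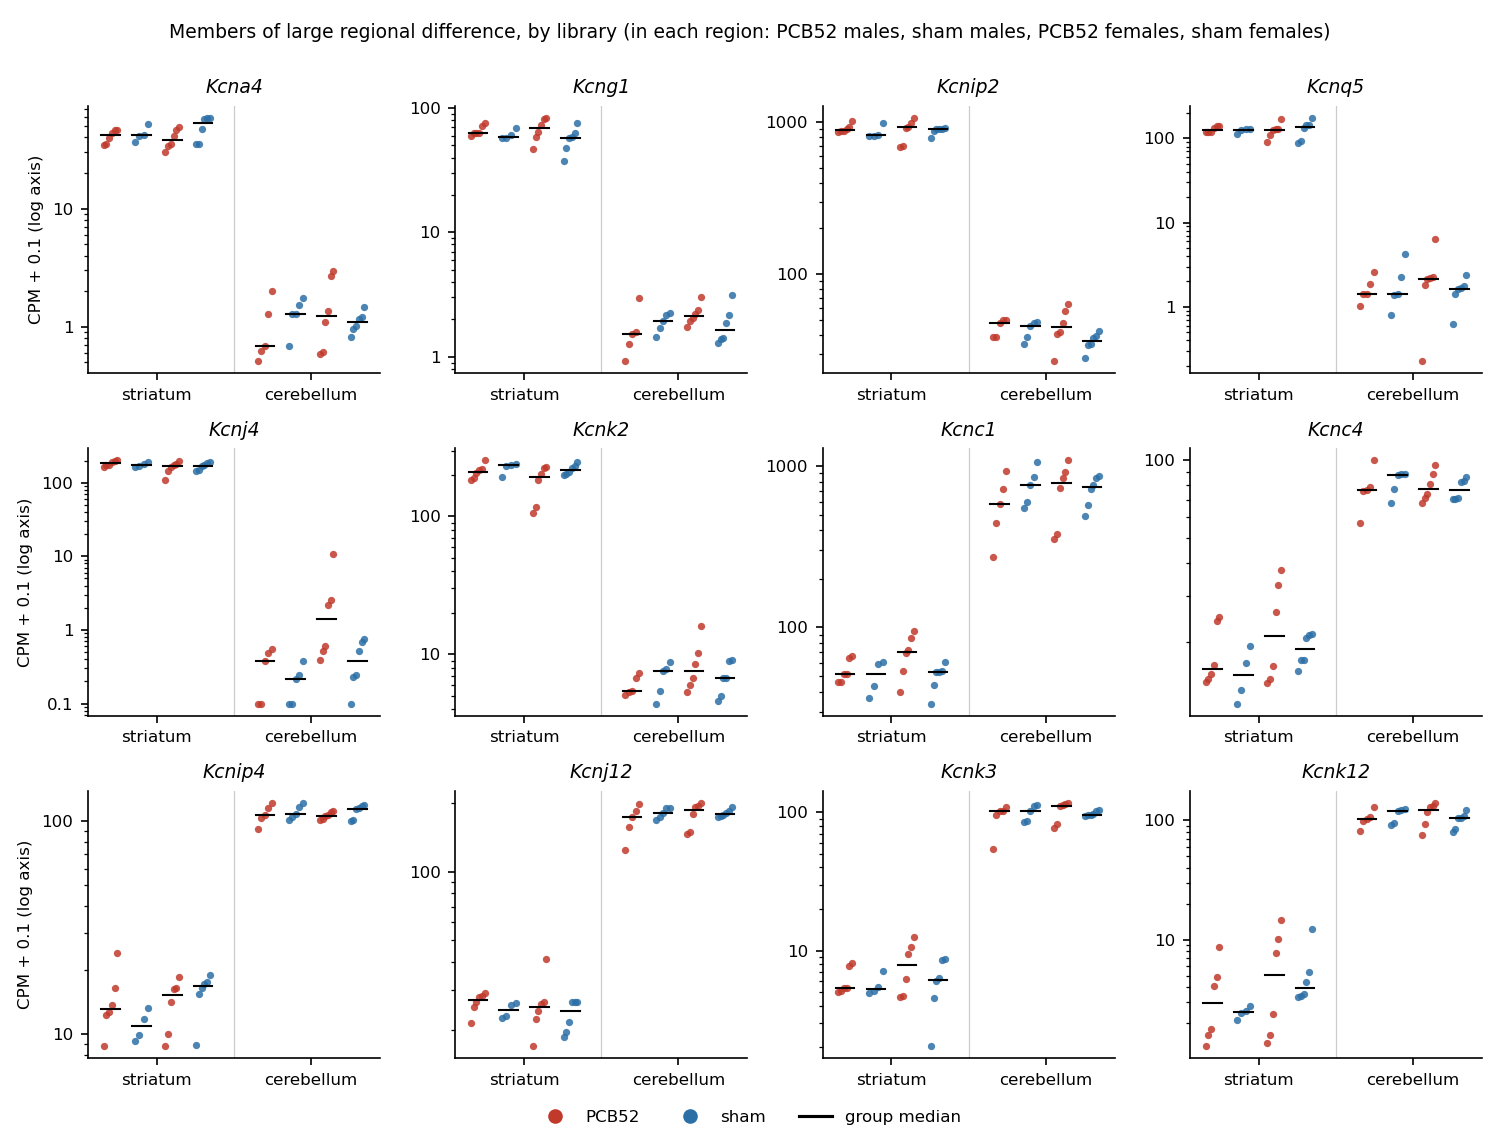
CPM + 0.1 on a log axis of 12 members in each library, by region, exposure and sex, with group medians as bars. For Kcnip2, Kcnq5 and Kcnj4 the striatal libraries lie at 692 to 1067, 87.9 to 175 and 109 to 200.4 CPM, above every cerebellar library, and for Kcnc1, Kcnk3 and Kcnk12 every striatal library lies below every cerebellar one.

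Kv7 subunits (Kcnq) carry the M-current, which muscarinic receptors close, and the EAG, ERG and ELK subunits (Kcnh) are slower voltage-gated relatives. Of 9 members, 5 were higher in striatum, 2 lower and 2 did not pass. Kcnq5 was at 87.9 to 175 CPM (median 128) across striatal libraries, against 0.127 to 6.28 CPM (median 1.62) across cerebellar libraries (log2 fold change 6.14 ± 0.17). The highest cerebellar value came from PCB52 female 24, and the second highest, 4.16 CPM, from sham male 1. Kcnh4, an ELK subunit, was at 45.9 to 87.6 CPM (median 70.4) across striatal libraries, against 1.77 to 5.27 CPM (median 3.48) across cerebellar libraries (4.36 ± 0.09). Kcnq3 was at 18.9 to 97.2 CPM in striatum (median 64.2) and 1.69 to 14.1 CPM in cerebellum (median 6.05) (3.29 ± 0.19). Kcnh2, the ERG subunit, was lower at 34.2 to 61.9 CPM in striatum (median 47.5) and 47.6 to 104 CPM in cerebellum (median 83.2) (-0.76 ± 0.06), and Kcnh3 was lower at 137 to 198 CPM in striatum (median 175) and 199 to 285 CPM in cerebellum (median 248) (-0.52 ± 0.05). Kcnh7 did not pass, at 0.614 to 3.198 CPM in striatum (median 1.94) and 0.275 to 3.68 CPM in cerebellum (median 1.597).

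Inward rectifiers (Kcnj) pass current best near the resting potential. Of 12 members, 5 were higher in striatum, 6 lower and 1 did not pass; Kcnj4 and Kcnj5, under 1 CPM in cerebellum, had to be higher. Of the strong rectifiers of the Kir2 type, Kcnj4 was at 109 to 200.4 CPM (median 174) across striatal libraries, against 0 to 10.7 CPM (median 0.285) across cerebellar libraries. Its mean in striatum was 188 times the cerebellar mean, which rests on 165 counts. Cerebellum PCB52 female 24 held 10.7 CPM of it and the other cerebellar libraries at most 2.46 CPM. The log2 fold change was 8.78 ± 0.27 with that library and 9.04 ± 0.19 without it. Kcnj2 was at 8.05 to 22.98 CPM (median 14.6) across striatal libraries, against 0.127 to 2.58 CPM (median 1.03) across cerebellar libraries (3.87 ± 0.17). Kcnj12, of the same type, was lower instead, at 16.9 to 40.9 CPM (median 25.9) across striatal libraries, against 125 to 201 CPM (median 180.3) across cerebellar libraries (-2.81 ± 0.07).

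The G-protein-gated rectifiers, opened by inhibitory receptors, were lower in striatum for 3 of their 4 genes. Kcnj6 was at 1.196 to 56.5 CPM (median 4.47) across striatal libraries, against 17.02 to 171 CPM (median 53.7) across cerebellar libraries, with a log2 fold change of -3.18 ± 0.34 (-3.41 ± 0.31 without its highest striatal library, PCB52 female 14). Kcnj3 was at 5.13 to 23.05 CPM in striatum (median 7.79) and 19.95 to 73.7 CPM in cerebellum (median 47.2) (-2.42 ± 0.16), and Kcnj9 was at 27.5 to 58.4 CPM in striatum (median 33.2) and 55.7 to 110.1 CPM in cerebellum (median 89.8) (-1.31 ± 0.07). Kcnj5 was higher instead, at 1.51 to 4.59 CPM in striatum (median 3.32) and 0.263 to 1.79 CPM in cerebellum (median 0.721), a ratio of means of 3.93. The glial subunits moved apart: Kcnj10 was higher at 44.8 to 128 CPM in striatum (median 100.2) and 12.4 to 50.9 CPM in cerebellum (median 35.3) (1.55 ± 0.12), and its partner Kcnj16 was lower at 0.999 to 15.4 CPM in striatum (median 5.15) and 11.6 to 28.02 CPM in cerebellum (median 18.3) (-1.82 ± 0.18). Of the pores of ATP-sensitive channels, Kcnj8, mostly of vessels, was higher (0.81 ± 0.09), and Kcnj11, of neurons, was slightly lower (-0.29 ± 0.04). Kcnj14 did not pass, at 19.3 to 36.1 CPM in striatum (median 28.01) and 19.6 to 29.8 CPM in cerebellum (median 26.6); it passed in 14 of the 53 alternatives that kept all groups, DESeq2 and limma among them.

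K2P (tandem-pore) subunits (Kcnk) form leak channels that are open at rest. Of 11 members, 5 were higher in striatum and 6 lower, and each of the 6 was at least 2-fold lower; Kcnk13 and Kcnk16, under 1 CPM in cerebellum, had to be higher. Kcnk12 was at 1.196 to 14.5 CPM (median 3.25) across striatal libraries, against 74.9 to 139 CPM (median 106) across cerebellar libraries (-4.69 ± 0.21), and Kcnk10 was at 0.293 to 4.57 CPM (median 1.22) across striatal libraries, against 12.4 to 45.4 CPM (median 29.8) across cerebellar libraries (-4.29 ± 0.20). The acid-sensitive leak subunits were lower too: Kcnk3 was at 1.94 to 12.4 CPM in striatum (median 5.64) and 54.1 to 117 CPM in cerebellum (median 101) (-3.95 ± 0.12), and Kcnk9 was at 1.53 to 14.6 CPM in striatum (median 3.99) and 4.55 to 34.8 CPM in cerebellum (median 17.7) (-2.09 ± 0.23). Kcnk1 was at 49.4 to 88.9 CPM in striatum (median 69.4) and 352 to 489.8 CPM in cerebellum (median 436) (-2.61 ± 0.06) with no overlap. Kcnk2, a stretch-sensitive leak subunit and the relative of Kcnk10, went the other way, at 105 to 254 CPM (median 211) across striatal libraries, against 4.296 to 15.9 CPM (median 6.62) across cerebellar libraries (4.91 ± 0.12). Kcnk16, known from pancreatic islets, was at 0.571 to 6.06 CPM in striatum (median 1.699) and 0 to 0.461 CPM in cerebellum (median 0); its mean was 32.2 times the cerebellar one, which rests on 12 counts. Kcnk13, found in microglia, was at 4.73 to 11.8 CPM in striatum (median 6.28) and 0.137 to 1.98 CPM in cerebellum (median 0.851). The summed level of 8 microglial markers was 387 to 590 CPM in striatum and 88.7 to 182 CPM in cerebellum, and its part in that difference was not tested. Kcnk6 differed least of the family (0.68 ± 0.19).

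Of 8 calcium- and sodium-activated subunits, 5 were higher in striatum, 2 lower and 1 did not pass; Kcnn4 and Kcnt2, under 1 CPM in cerebellum, had to be higher. Kcnn3, a small-conductance subunit, was at 11.7 to 25.6 CPM (median 19.1) across striatal libraries, against 0.910 to 3.12 CPM (median 1.81) across cerebellar libraries (3.29 ± 0.10). Kcnt2, a sodium-activated subunit, was at 0.921 to 10.2 CPM (median 2.68) across striatal libraries, against 0 to 1.23 CPM (median 0.130) across cerebellar libraries, a ratio of means of 17.9 over 31 cerebellar counts. Kcnma1, the pore of the large-conductance channel, was lower, at 24.9 to 66.3 CPM in striatum (median 44.4) and 47.4 to 100.1 CPM in cerebellum (median 73.97) (-0.73 ± 0.08), while Kcnmb4, its brain beta subunit, was higher, at 45.1 to 103 CPM in striatum (median 62.7) and 29.4 to 88.1 CPM in cerebellum (median 44.3) (0.39 ± 0.11). Kcnn2 was at 22.99 to 45.03 CPM in striatum (median 29.5) and 17.5 to 50.4 CPM in cerebellum (median 35.9), with a log2 fold change of -0.20 ± 0.09 (adjusted p 0.0305) that did not pass with the animal as a block (-0.15 ± 0.07, adjusted p 0.0537). Kcnt1 was at 152 to 318 CPM in striatum (median 237) and 131 to 483 CPM in cerebellum (median 296) and did not pass, though it did in 14 of the 53 alternatives, limma among them. Kcnrg, a regulator outside these families, did not pass either, at 0.474 to 2.71 CPM in striatum (median 1.14) and 0.263 to 2.59 CPM in cerebellum (median 1.16).

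Of a list of 21 genes that work with these channels or encode HCN pacemaker channels, 18 were measured. Of these, 7 were higher in striatum and 9 lower, so that 16 of 18 differed where 80.9% of all genes did, with a median log2 fold change of -0.11 (-0.04 over all genes). Lrrc38, an auxiliary subunit of the large-conductance channel, was at 1.76 to 5.68 CPM in striatum and 25.2 to 49.5 CPM in cerebellum (-3.59 ± 0.11). Lrrc55, a relative of Lrrc38, went the other way, at 3.49 to 11.4 CPM in striatum and 0.508 to 3.11 CPM in cerebellum (2.28 ± 0.18). Abcc9, a sulfonylurea receptor that pairs mainly with Kcnj8, was at 11.4 to 49.6 CPM in striatum and 1.48 to 14.5 CPM in cerebellum (2.07 ± 0.18). Hcn4 and Lgi1 did not pass.

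No member passed an adjusted p of 0.05 between PCB52 and sham animals in either region. In striatum 74 members were tested. The count was 0 of 74 for each sex and for the mean of the sexes, where 0% of the 12142 genes tested passed in each comparison. In cerebellum 63 members were tested. The count was again 0 of 63 for each sex and for their mean, where 0% of the 11690 genes passed. DESeq2 and limma also called 0 members in these comparisons and in those of sex and of interaction given further on. Over all genes DESeq2 called 1 in striatal males, 24 in striatal females, 0 in striatum over both sexes, 1 in cerebellar males, 10 in cerebellar females and 23 in cerebellum over both sexes, and limma called 0 in each of these. For the female minus the male effect DESeq2 called 0 genes in striatum and 4 in cerebellum, and for the striatal minus the cerebellar effect 3, where limma called 0 in each. For sex DESeq2 called 7 genes in striatum and 6 in cerebellum, and limma called 6 in each region. The standard errors set what could have been seen: the median SE of a member's log2 fold change was 0.22 in striatal males, 0.20 in striatal females, 0.25 in cerebellar males and 0.22 in cerebellar females.

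The members' shares at an unadjusted p under 0.05 stand here beside those of all genes. In striatum 14 of 74 members fell under it in females (18.9%), where 13.4% of all genes did, 0 of 74 in males, where 0.898% of all genes did, and 3 of 74 in the mean of both sexes (4.05%), where 5.8% of all genes did. In cerebellum 6 of 63 fell under it in males (9.52%), where 14.3% of all genes did, 4 of 63 in females (6.35%), where 3.16% of all genes did, and 6 of 63 in the mean of both sexes (9.52%), where 14.8% of all genes did. In a further fit each region left out its own libraries of another tissue. In striatum these were PCB52 females 14 and 20, PCB52 male 19 and sham female 12, and in cerebellum sham male 1. The striatal fit kept PCB52 females 22 and 24. The count in striatal females was then 7 of 74, where 7.02% of all genes fell under 0.05. In cerebellar males it was then 1 of 64, where 4.93% of all genes did. Without the libraries of both sexes as well it was 0 of 68 in cerebellar males, where 1.62% of all genes did. Over both sexes in cerebellum it was 1 of 68, where 2.86% did.

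**Figure D3:**
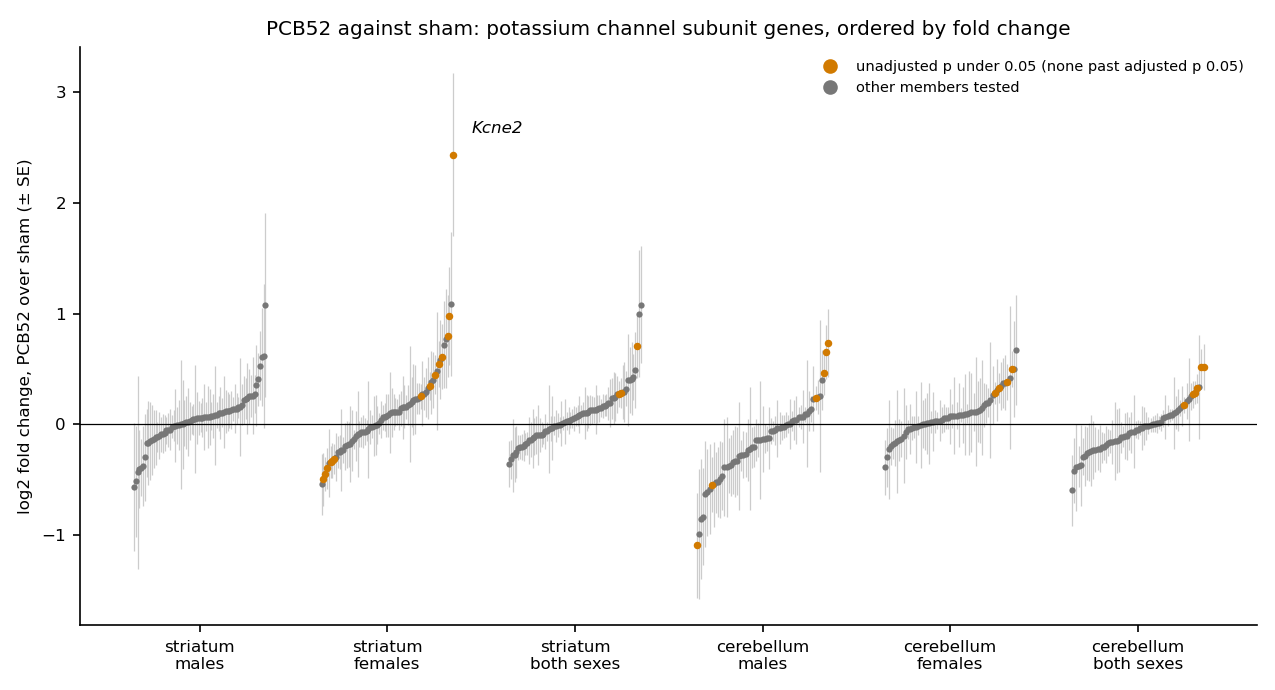
Log2 fold change of PCB52 over sham, with bars of 1 SE, for each member tested in 6 comparisons, ordered by size within each. Orange points have an unadjusted p under 0.05 and none passes adjusted p 0.05; Kcne2 in striatal females, at 2.43 ± 0.73, stands apart.

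In striatal females the lowest p was that of Kcne2, which was at 1.79 to 76.6 CPM (median 3.14, n = 6) in PCB52 females and 1.86 to 4.33 CPM (median 2.78, n = 6) in sham females. PCB52 female 20 held 76.6 CPM, and no other library of either group exceeded 4.33 CPM. The log2 fold change was 2.43 ± 0.73 (p 0.00316, adjusted p 0.276, edgeR), and 0.03 ± 0.23 without that library. Kcnv1 was at 24.4 to 46.8 CPM (median 36.1, n = 6) in PCB52 females and 35.6 to 63.1 CPM (median 45.9, n = 6) in sham females, and the groups overlapped (-0.44 ± 0.15, adjusted p 0.303, edgeR). Without the libraries of another tissue, a fit that kept PCB52 female 24 with its 24.4 CPM of Kcnv1, it was -0.27 ± 0.17. Kcnj14 was at 21.8 to 36.1 CPM (median 31.9, n = 6) in PCB52 females and 19.3 to 30.5 CPM (median 23.1, n = 6) in sham females, also with overlap (0.35 ± 0.12, adjusted p 0.304, edgeR). Without the libraries of another tissue Kcnj14 was at 0.40 ± 0.13 (adjusted p 0.654, edgeR).

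In striatal males no member had an unadjusted p under 0.05. The lowest was that of Kcng3, at 2.39 to 4.89 CPM (median 3.64, n = 6) in PCB52 males and 3.702, 2.49, 1.36 and 2.53 CPM in the 4 sham males (0.53 ± 0.31). Kcnip4 was at 8.67 to 23.8 CPM (median 13.1, n = 6) in PCB52 males and 9.198, 13.2, 9.83 and 11.7 CPM in sham males (0.41 ± 0.24). Kcnab2 was at 169.7 to 198 CPM (median 182, n = 6) in PCB52 males and 161, 168, 136 and 197 CPM in sham males (0.15 ± 0.09). The groups overlapped for all 3 genes, and each adjusted p was 1 (edgeR). Single libraries moved these values: Kcng3 was at 0.34 ± 0.32 without sham male 9 and 0.78 ± 0.35 without sham male 1, Kcnip4 at 0.21 ± 0.22 without PCB52 male 19, a library with cortical neuron markers, and Kcnab2 at 0.08 ± 0.10 without sham male 9 and 0.25 ± 0.10 without sham male 11.

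Over both sexes in striatum, Kcnk9, Kcnj9 and Kcnc1 had the lowest p, with log2 fold changes of 0.71 ± 0.29, 0.27 ± 0.11 and 0.28 ± 0.13 (each adjusted p 0.774, edgeR). Kcnk9 was highest in PCB52 female 14, at 14.6 CPM, where no other striatal library exceeded 7.90 CPM. Kcnj9 was highest in PCB52 male 19, at 58.4 CPM. Both libraries were among those with cortical neuron markers, and without the libraries of another tissue the log2 fold changes were 0.35 ± 0.27 for Kcnk9 and 0.17 ± 0.08 for Kcnj9. Kcnc1 was highest in PCB52 female 22, at 95.2 CPM. That library also held Gabra6 at 67.9 CPM, where the other striatal libraries held at most 1.89 CPM, and the highest striatal value of Kcnk12 (14.5 CPM), all genes higher in cerebellum. Without the libraries of another tissue, a fit that kept PCB52 females 22 and 24, Kcnc1 was at 0.25 ± 0.13. The value without PCB52 female 22 is not given here.

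In cerebellar males Kcnmb4, Kcng2 and Kcnj8 had the lowest p. Kcnmb4 was at 40.9, 69.6, 57.5, 55.7 and 88.1 CPM in the 5 PCB52 males and 29.4, 44.5, 41.3, 55.4 and 36.8 CPM in the 5 sham males (0.65 ± 0.25). Kcng2 was at 5.22, 6.63, 7.43, 5.65 and 10.9 CPM in PCB52 males and 1.78, 6.87, 3.74, 5.95 and 3.94 CPM in sham males (0.73 ± 0.31). Kcnj8 was at 5.22, 9.62, 7.56, 8.53 and 8.13 CPM in PCB52 males and 5.199, 6.16, 5.68, 6.09 and 6.43 CPM in sham males (0.46 ± 0.20). The groups overlapped for each gene, and the adjusted p was 0.313 for all 3 (edgeR). The median log2 fold change over the members tested was -0.13, and 0.01 over all genes. Sham males 9 and 11 were among the libraries with transcripts of both sexes. Without the libraries of both sexes and of another tissue Kcnmb4 was at 0.60 ± 0.35. In that fit Kcng2 was at 0.48 ± 0.39 and Kcnj8 at 0.45 ± 0.29.

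In cerebellar females Kcnk4, a mechanosensitive leak subunit, was at 5.97 to 13.3 CPM (median 7.92, n = 6) in PCB52 females and 5.53 to 6.801 CPM (median 6.08, n = 6) in sham females (0.50 ± 0.16). Its highest value was in PCB52 female 24, the cerebellar library with the most of the forebrain kinase gene Camk2a. Kcnk4 was itself higher in striatum (1.37 ± 0.10), and its value without that library is not given here. Kcnip3 was at 50.6 to 71.8 CPM (median 58.98, n = 6) in PCB52 females and 42.8 to 55.4 CPM (median 51.3, n = 6) in sham females (0.28 ± 0.10). Kcnn1 was at 8.91 to 12.7 CPM (median 10.5, n = 6) in PCB52 females and 8.03 to 10.6 CPM (median 8.45, n = 6) in sham females (0.33 ± 0.14). The groups overlapped for each gene, and each adjusted p was 1 (edgeR). Over both sexes Kcnmb4, Kcnn1 and Kcng2 had the lowest p, at 0.51 ± 0.17, 0.29 ± 0.10 and 0.52 ± 0.21 (each adjusted p 0.326, edgeR).

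The cerebellar libraries differed widely in some members, along with their ribosomal protein transcripts. The mean of 79 cytosolic ribosomal protein genes was 8.91 to 9.45 log2 CPM in 4 libraries, PCB52 males 15 and 23 and PCB52 females 16 and 20, and 7.37 to 8.46 in the other 18, which hold the other 7 PCB52 libraries and all 11 sham libraries. Kcnmb4 was at 68.97 to 88.1 CPM in those 4 and 29.4 to 57.5 CPM in the other 18. Kcna2 was at 6.80 to 9.57 CPM in those 4 and 14.98 to 85.4 CPM in the others. Likewise Kcnj6 was at 17.02 to 23.02 CPM against 31.5 to 171 CPM, Kcnd3 at 27.8 to 39.3 CPM against 44.8 to 161 CPM, and Kcnc1 at 275 to 442 CPM against 492 to 1081 CPM.

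None of these 5 genes overlapped between the 4 libraries and the rest. The neuronal transcript Map2, which encodes a dendritic microtubule protein, was at 27.4 to 51.9 CPM in the 4 libraries and 79.8 to 384 CPM in the others. In contrast, Kcnab3 (60.4 to 82.6 CPM against 64.7 to 79.96 CPM) and Kcnk12 (74.9 to 106 CPM against 78.998 to 139 CPM) overlapped. An alternative chosen after seeing the data held the ribosomal protein mean as a covariate. In it the PCB52 log2 fold change of Kcnmb4 over both sexes was 0.22 ± 0.05 in place of 0.51 ± 0.17. Its SE fell too, and its adjusted p was 0.109 in place of 0.326 (edgeR). Kcnn1 was at 0.18 ± 0.09 in place of 0.29 ± 0.10, and Kcng2 at 0.28 ± 0.16 in place of 0.52 ± 0.21. That fit called 0 members. At an unadjusted p under 0.05 it had 9 of 63 members over both sexes, where 11.9% of all genes fell under it. The count was 9 of 63 in females, where 9.98% of all genes did, and 4 of 63 in males, where 6.07% did. Without the covariate these counts were 6, 4 and 6. The part of the ribosomal protein level in these differences was not tested beyond that fit. In striatum Kcna2 did not overlap either, at 5.68 to 10.9 CPM in the 4 libraries of highest ribosomal protein mean (PCB52 male 13, PCB52 female 18, sham male 9 and sham female 12) and 16.8 to 30.4 CPM in the other 18. The other 4 genes overlapped there: Kcnj6 was at 1.21 to 9.47 CPM against 1.196 to 56.5 CPM, Kcnmb4 at 68.8 to 103 CPM against 45.1 to 71.8 CPM, Kcnc1 at 33.6 to 46.1 CPM against 43.5 to 95.2 CPM, and Kcnd3 at 15.7 to 22.9 CPM against 20.8 to 66.8 CPM.

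**Figure D4:**
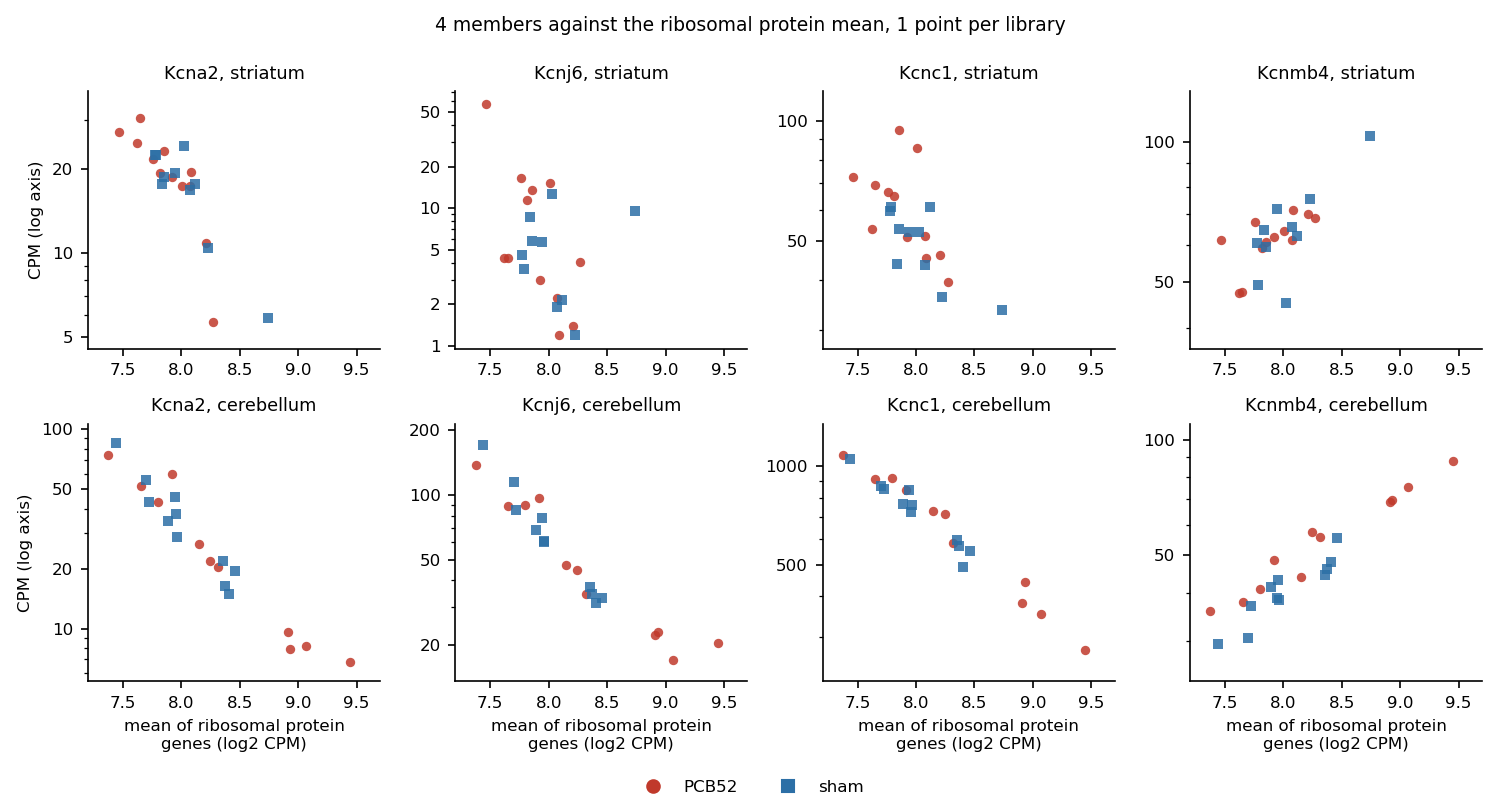
CPM (log axis) of Kcna2, Kcnj6, Kcnc1 and Kcnmb4 against the mean of 79 ribosomal protein genes (log2 CPM), striatum above and cerebellum below, 1 point per library. In cerebellum the 4 PCB52 libraries at 8.91 to 9.45 hold the lowest Kcna2, Kcnj6 and Kcnc1 and the highest Kcnmb4.

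The effect of PCB52 was also compared between the sexes and between the regions. No member passed for the female minus the male effect: 0 of 74 in striatum, where 0% of all genes passed, and 0 of 63 in cerebellum, where 0% did. At an unadjusted p under 0.05 the counts were 3 of 74 (4.05%) in striatum, where 3.88% of all genes fell under it, and 0 of 63 in cerebellum, where 2.17% did. Kcne2 (2.86 ± 1.13), Kcnab2 (-0.29 ± 0.13) and Kcns3 (1.01 ± 0.46) had the lowest p in striatum (each adjusted p 0.914, edgeR), and Kcne2 was at 0.46 ± 0.34 without PCB52 female 20. In cerebellum these were Kcnk4 (0.46 ± 0.24), Kcnma1 (0.33 ± 0.19) and Kcnh1 (0.60 ± 0.37), each with an adjusted p of 0.774 (edgeR). With the ribosomal protein mean as a covariate Kcnma1 was at 0.17 ± 0.11 and Kcnh1 at 0.22 ± 0.10.

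For the striatal minus the cerebellar effect, 0 of 75 members passed, where 0% of 12446 genes did, and 9 (12%) had an unadjusted p under 0.05, where 18.3% of all genes did. Kcnmb4 (-0.63 ± 0.21), Kcna3 (1.49 ± 0.53) and Kcnv1 (-0.38 ± 0.14) had the lowest p (each adjusted p 0.268, edgeR). Without the libraries of another tissue the count at an unadjusted p under 0.05 was 3 of 74, where 3.05% of all genes fell under it, and without those of both sexes as well it was 0 of 75, where 1.80% did. Kcna3 was at 0.89 ± 0.53 and 0.67 ± 0.64 in these fits. With the ribosomal protein mean as a covariate Kcnmb4 was at -0.20 ± 0.10, Kcna3 at 0.98 ± 0.45 and Kcnv1 at -0.23 ± 0.12. In cerebellum Kcna3 was at 0, 0.130, 0.413, 0.0958 and 0.148 CPM in PCB52 males and 1.93, 0.237, 0.416, 0.142 and 0.730 CPM in sham males, levels that rest on 86 counts over all cerebellar libraries.

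Sex was a further comparison, with females set against males over both exposures. No member passed: 0 of 74 in striatum, where 0.0494% of all genes (6) did, and 0 of 63 in cerebellum, where 0.0257% (3) did. At an unadjusted p under 0.05 the counts were 7 of 74 (9.46%) in striatum, where 3.26% of all genes fell under it, and 5 of 63 (7.94%) in cerebellum, where 1.56% did. In striatum Kcnh4, Kcnj6 and Kcnrg had the lowest p. Kcnj6 was at 4.04 to 56.5 CPM (median 8.97, n = 6) in PCB52 females and 2.15 to 12.7 CPM (median 7.16, n = 6) in sham females, against 1.196 to 16.6 CPM (median 2.63, n = 6) in PCB52 males and 3.59, 1.904, 1.21 and 4.59 CPM in sham males, with a log2 fold change of 1.38 ± 0.53 (adjusted p 1, edgeR) and 0.92 ± 0.44 without PCB52 female 14. Without the libraries of another tissue, a fit that kept PCB52 female 24, Kcnj6 was at 1.26 ± 0.42. Without those of both sexes as well it was at 1.19 ± 0.45. The summed level of 9 cortical neuron markers had striatal medians of 515 CPM in PCB52 females and 557 CPM in sham females. In PCB52 and sham males the medians were 355 and 313 CPM. The part of these markers' tissue in the Kcnj6 difference was not tested. The log2 fold change was -0.25 ± 0.09 for Kcnh4 and -0.66 ± 0.27 for Kcnrg. In cerebellum the lowest p were those of Kcnj11 (-0.15 ± 0.05), Kcnk4 (0.32 ± 0.12) and Kcne2 (-0.59 ± 0.24, and -0.23 ± 0.13 without sham male 1), each with an adjusted p of 0.998 (edgeR). Without the libraries of both sexes and of another tissue Kcne2 was at -0.12 ± 0.16. In that fit Kcnj11 was at -0.18 ± 0.06 and Kcnk4 at 0.35 ± 0.17.

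Some members varied far more than others within a region. The median coefficient of variation of CPM over the members was 0.25 in striatum and 0.28 in cerebellum. In striatum it was highest for Kcne2 at 2.52, Kcnj6 at 1.36 and Kcnk12 at 0.82. Kcnj6 was at 56.5 CPM in PCB52 female 14, and the next library held 16.6 CPM. Kcnk12 was at 14.5 CPM in PCB52 female 22, 12.3 CPM in sham female 12 and 10.03 CPM in PCB52 female 14, against a median of 3.25 CPM. Kcng2 was at 51.4 CPM in PCB52 female 24, where Slc17a7, a glutamate transporter of cortical and granule neurons, was at its striatal maximum of 371 CPM, and at 25.5 CPM or less elsewhere.

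In cerebellum the coefficient of variation was highest, among members of at least 1 CPM there, for Kcns3 at 0.77, Kcnq5 at 0.69 and Kcna2 at 0.66. Kcns3 and Kcnq5 were both highest in PCB52 female 24, at 3.83 and 6.28 CPM. The same library held the most Kcnj4 (10.7 CPM), Kcnf1 (6.74 CPM) and Kcnk2 (15.9 CPM) of any cerebellar library, all genes higher in striatum, and 132 CPM of the forebrain kinase gene Camk2a, where the others held at most 67.1 CPM. Drd1 in it was at 5.67 CPM, within the cerebellar range of 0.413 to 9.7 CPM. At the other end, Kcnab3 (60.4 to 82.6 CPM), Kcnip4 (92.01 to 122 CPM) and Kcnj11 (53.8 to 70.9 CPM) varied little across cerebellar libraries.

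**Figure D5:**
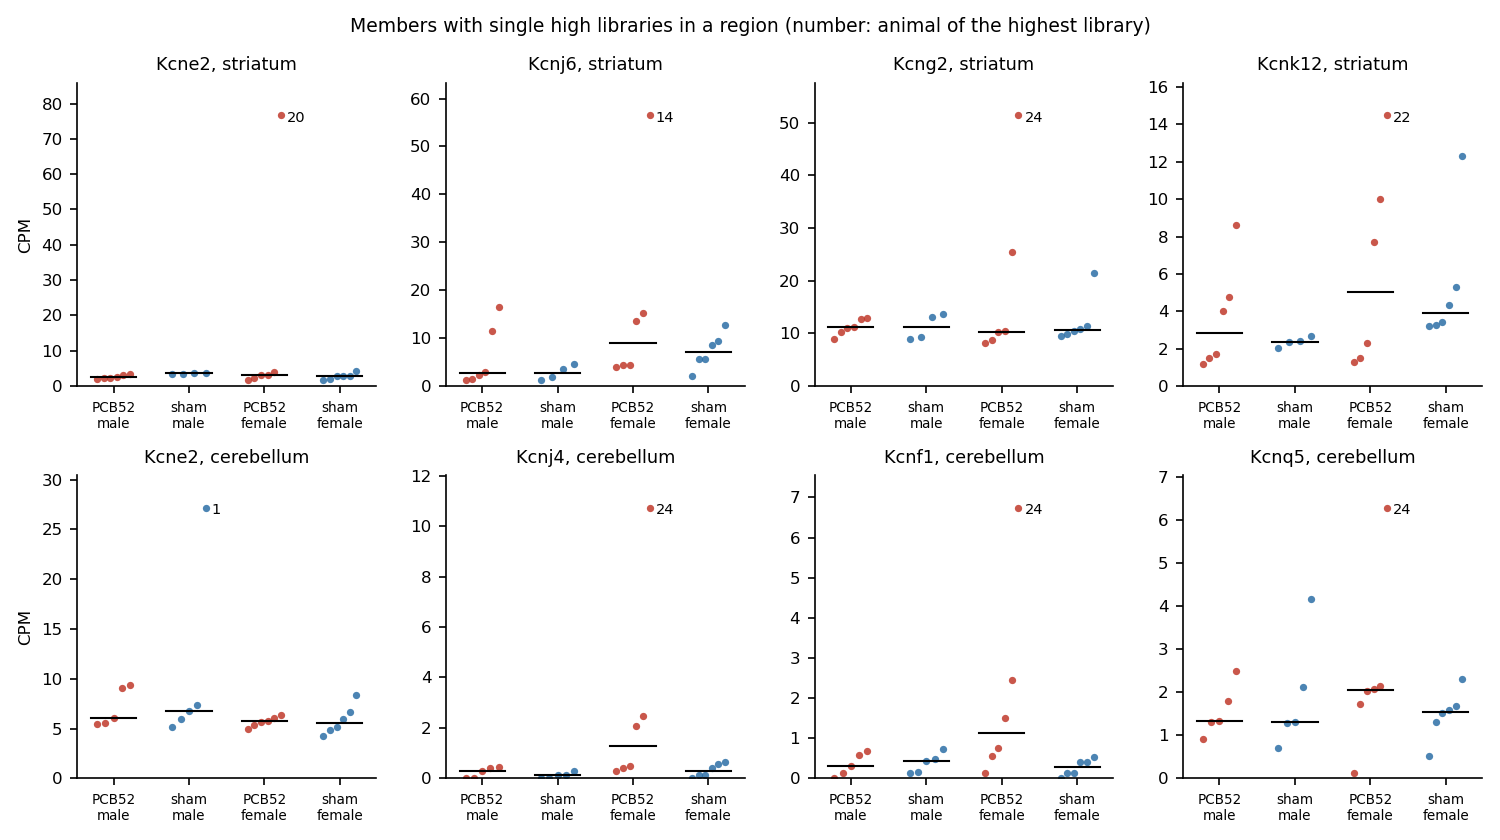
CPM of 7 members by group in striatum (top) and cerebellum (bottom), 1 point per library with group medians as bars and the animal number beside the highest library. Kcne2 reaches 76.6 CPM in striatum PCB52 female 20 and 27.2 CPM in cerebellum sham male 1, and cerebellum PCB52 female 24 is highest for Kcnj4, Kcnf1 and Kcnq5.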

How the data were processed

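Gene counts of 44 libraries were used, 22 from striatum and 22 from cerebellum; 3 of the 47 labelled samples were not analysed here. The deposited values are whole-number counts per gene, and per the submitters' processing notes FastQC, HISAT2 and the rn6 build were used. No source used here names the counting tool, annotation or strand setting, so antisense or overlapping genes cannot be told apart. Per the labels' protocols, libraries followed poly(A) capture or ribosomal RNA removal. Of 15319 identifiers, 15230 (99.4%) matched a symbol. There were 0 unmapped columns. The members and lists were chosen with earlier results of these data known, and some genes are not reported here.

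Levels are CPM of the library total. Tests used edgeR 4.0.16 (R 4.3.3; TMM factors, filterByExpr, quasi-likelihood) over all genes with Benjamini-Hochberg adjustment and a threshold of 0.05. The regional difference and its interaction came from a joint fit of 8 group means, and the other comparisons from regional fits of 4. DESeq2 1.42.0 and limma 3.58.1 were alternatives, with RLE factors, no filter, each library left out, libraries of another tissue or of both sexes left out, sex or exposure groups alone, and the animal as a block. The ribosomal covariate, leaving out both kinds of libraries together and single groups were added after seeing the data. The tests were tested on simulated data. Named genes were those of largest change up and down and of smallest change in each family, the 3 of lowest p in each other comparison, and the 3 most variable per region. Other members were named to complete a family, after their values were seen. Separate animals are taken from the titles. The lowest chi-square per degree of freedom between libraries of a group was 3.49, so none was a duplicate.

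For pairing, 21 animals gave both regions, by the number and code their titles share. The correlation of their deviations from group means had a median of 0.09 (-0.41 to 0.51), and was over 0.1 in 10 animals.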

Additional observations from a re-analysis of the deposited data

Results flagged for a closer look

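Single libraries stood far from the rest of their group in 5 of the 98 groups of a gene examined, where chance flags about 1 in 20. Kcne2 was at 76.6 CPM in striatum PCB52 female 20, and the other PCB52 females held 1.79 to 3.94 CPM. Kcne2 was also at 27.2 CPM in cerebellum sham male 1, and the other sham males held 5.13 to 7.37 CPM. Kcnj6 was at 56.5 CPM in striatum PCB52 female 14, and the other PCB52 females held 4.04 to 15.3 CPM. Kcnrg was at 1.58 CPM in striatum PCB52 female 24, and the other PCB52 females held 0.748 to 1.02 CPM. These low levels rest on few reads, with 192 counts of Kcnrg over all 22 striatal libraries. Kcnn1 was at 10.6 CPM in cerebellum sham female 10, a library with transcripts of both sexes, and the other sham females held 8.03 to 8.61 CPM.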

How the results depend on the processing

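The counts of members past the threshold stayed within 1.5 times the reported count in all alternatives run. Over 53 alternatives on all groups, 66 to 72 members were called between regions, and 65 of the 69 lost the call in none in which they were tested. Calls were lost for Kcne2 (40 alternatives), Kcnn2 (19), Kcna1 (6) and Kcna2 (1). Calls were gained for Kcnj14 (14 alternatives, DESeq2 and limma among them), Kcnt1 (14, limma among them) and Kcnh1 (12, limma among them). With the animal as a block, a pairing taken from the titles, 67 members were called between regions (50 at least 2-fold), without Kcna1 and Kcnn2, and 0 for the striatal minus the cerebellar effect. Log2 fold changes between regions turned direction for Kcna1 in PCB52 males only (0.0231), Kcne2 in female libraries only (0.19) and PCB52 females only (1.446), Kcns3 in PCB52 libraries only (-0.0212) and male libraries only (-0.28), Kcnh7 in female libraries only (-0.0160) and Kcnn2 in PCB52 females only (0.0582); the cause was not tested. Depth limits members under 1 CPM in cerebellum. The p-values set a difference against the spread between libraries of a group. The main regional fit had no animal block and so treated libraries of the same animal as independent.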
